A study of Mus musculus with 6 samples.

Results

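Met and 9 further genes of receptor tyrosine kinase signalling were described in DC2.4, a mouse dendritic cell line, in libraries labelled PD-L1 knockout or control. The 10 genes are the receptors Met, Csf1r, Axl, Mertk, Tyro3, Flt3, Kit and Ryk, the adaptor Gab1 and the ligand Hgf, out of 31205 genes in the read count table. They were chosen by symbol from an earlier reading of the same libraries, in which Met had no count in the knockout, so their levels in the 2 groups are given as a description, and no test of them is used as support. The samples are 3 libraries of DC2.4 cells whose genotype is given as PD-L1 knockout and 3 of DC2.4 cells whose genotype is given as Control, all of total RNA. No drug treatment, no clone number and no statement on separate cultures is given for either group, so p-values below reflect variation among the libraries of a group, and that variation may be technical.

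A receptor tyrosine kinase spans the plasma membrane, binds a ligand outside the cell and phosphorylates tyrosines inside it, to which adaptors and enzymes then bind. Met is the receptor for hepatocyte growth factor, the product of Hgf, and signals largely through the docking adaptor encoded by Gab1. Csf1r, the receptor for colony stimulating factor 1 and interleukin 34, supports the survival of macrophages and related cells. Tyro3, Axl and Mertk form the TAM family, which binds Gas6 and protein S and takes part in the uptake of dying cells and in damping inflammation in myeloid cells. Flt3 and Kit are receptors of blood progenitors, and Flt3 also drives the development of dendritic cells in the body. Ryk is a Wnt receptor whose kinase domain lacks catalytic activity.

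Promoter sequence is shown for Met, which had no count in the knockout, for Axl, which was lower there, and for Ryk, whose groups overlapped. The windows come from RefSeq (GRCm38.p6) and end before the annotated transcript start. They lie at chr6:17463707-17463799 (plus strand) for Met, chr7:25788734-25788983 (minus strand) for Axl and chr9:102834670-102834916 (plus strand) for Ryk. Capitals mark matches, on either strand, to the GC box (GGGCGG) or to the TATA box (TATAAA).
Met: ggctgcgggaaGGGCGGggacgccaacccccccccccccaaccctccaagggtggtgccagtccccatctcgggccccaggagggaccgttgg
Axl: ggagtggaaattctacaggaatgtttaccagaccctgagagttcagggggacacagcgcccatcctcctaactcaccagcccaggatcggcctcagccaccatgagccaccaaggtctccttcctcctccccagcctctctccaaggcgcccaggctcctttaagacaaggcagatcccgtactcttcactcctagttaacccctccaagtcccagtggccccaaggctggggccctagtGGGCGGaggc
Ryk: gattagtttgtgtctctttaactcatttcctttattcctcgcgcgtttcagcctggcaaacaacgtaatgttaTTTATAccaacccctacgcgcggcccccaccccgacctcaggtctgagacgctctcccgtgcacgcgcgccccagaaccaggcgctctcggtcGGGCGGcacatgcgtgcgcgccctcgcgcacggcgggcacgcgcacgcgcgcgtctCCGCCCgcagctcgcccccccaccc
The Met window of 93 bases holds 1 GC box, which 9.67% of 32851 RefSeq promoters hold in the same window. The Axl window of 250 bases holds 1 GC box, found in 32.7% of promoters, and the Ryk window of 247 bases holds 2, with at least 1 in 32.3% of promoters. The TATA box letters were found only in the Ryk window, on the minus strand, and in 12.3% of promoters over the same window. None of the 3 windows holds the AP-1 letters (TGANTCA), the cyclic AMP response element (TGACGTCA) or the ETS core (GGAAGT). These were found in 6.75%, 1.55% and 19.7% of promoters over 250 bases. Over the 93 bases of the Met window, they were found in 2.29%, 0.137% and 6.49%.

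Depth ranged from 13501776 to 21133688 counts in the knockout libraries and from 10918498 to 23250065 in the control libraries. The transcript of the targeted gene, Cd274, did not fall under the knockout label, with 7.70, 5.44 and 8.11 CPM (counts scaled to library size) in knockout, against 4.65, 5.87 and 6.83 CPM in control. It therefore does not check the label, and every direction below rests on the labels. Of 11 dendritic cell markers, 5 passed the count filter (Itgax, Cd80, Cd86, Zbtb46 and Irf8), while Clec9a had 0 counts and Ccr7, Batf3, Xcr1, H2-Ab1 and Ciita had at most 15 counts in either group. The macrophage markers Adgre1 and Cd68 were high in both groups (3764 and 26811 counts in knockout, 4524 and 28380 in control). Control library 2 stood apart on a list of 10 fibroblast markers, with 222 CPM against at most 0.672 CPM in any other library. Most of this was Col1a1 (132 CPM) and Fn1 (81.9 CPM), while Dcn, Lum, Pdgfra, Thy1 and Postn had 0 counts there. Knockout library 1 differed more from the other knockout libraries (chi-square per degree of freedom 54.0 and 51.8) than these did from each other (22.0).

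Met had no count in any knockout library and was readily detected in every control library. It had 0, 0 and 0 counts in knockout libraries 1, 2 and 3, against 172, 135 and 182 in control libraries 1, 2 and 3. On the CPM scale, normalized by the trimmed mean of M values (TMM), control held 15.4, 8.0 and 7.27 CPM. Control library 1 was the highest, and the groups did not overlap. A count of 0 allows up to 0.226, 0.201 and 0.149 CPM in knockout libraries 1, 2 and 3 (3 counts, counting error only). Set against 3 counts over the knockout group, Met (chromosome 6, 17463800 to 17573980, mm10) was at least 164-fold lower than its control mean of 10.2 ± 4.49 CPM (SD, n = 3). In bulk RNA, fewer cells with a transcript and less transcript per cell cannot be told apart.

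Hgf, the ligand of Met, was close to absent from both groups, with 0, 1 and 1 counts in knockout and 2, 0 and 3 in control. Gab1 had 0, 1 and 0 counts in knockout and 0, 1 and 0 in control. The related adaptor Gab2 was present (28.4, 11.8 and 10.6 CPM in knockout, 26.3, 27.7 and 20.1 CPM in control) and did not pass the test (log2 fold change -0.55, SE 0.33, edgeR adjusted p = 0.241). Knockout library 1 lay at the control level for Gab2 and the other knockout libraries below it. Gab3, a further family member, had 3 counts in the 3 knockout libraries and 44 in control, too few to be tested. In control, Met was detected beside almost no counts of its ligand or of Gab1.

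Csf1r was the most abundant of the 10 genes and was lower in knockout without being lost. It had 165, 126 and 145 CPM in knockout, against 282, 236 and 199 CPM in control (2182, 1870 and 2923 counts against 3148, 3980 and 4990). All knockout libraries lay below all control libraries, and the mean was 145 ± 19.6 CPM in knockout and 239 ± 41.2 CPM in control (SD, n = 3 each). The log2 fold change of Csf1r was -0.72 (SE 0.16). It was -0.62 without knockout library 2, -0.71 without knockout library 3 and -0.73 without control library 2. Csf1r overlaps Hmgxb3 on the other strand, which had 4306 counts over all libraries, and the strand setting of the counting is not given. With 25.2 CPM per kb of exon in knockout and 41.4 in control, Csf1r stood at percentile 80.3 and 90.1 of the 11453 genes tested.

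The TAM receptors were low or absent in knockout. Axl had 29, 10 and 9 counts in knockout and 74, 168 and 231 in control, which is 2.19, 0.672 and 0.448 CPM against 6.62, 9.96 and 9.23 CPM. Knockout library 1 was the highest of its group and still below every control library. The log2 fold change of Axl was -3.03 (SE 0.49), and -3.97 without knockout library 1. Without control library 2, the highest for Axl and the one with high Col1a1 and Fn1, it was -2.90. Tyro3 had 0, 0 and 0 counts in knockout and 18, 18 and 15 in control (1.61, 1.07 and 0.599 CPM), at least 17.6-fold lower against 3 counts over the knockout group. Mertk had 0 counts in knockout and 0, 1 and 5 in control, so that no difference was detectable at this depth. Axl was the main TAM transcript of both groups, at 0.219 ± 0.188 CPM per kb in knockout and 1.71 ± 0.348 in control (SD, n = 3 each), against 0 and 0.176 ± 0.0817 for Tyro3.

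The progenitor receptors were not expressed at a measurable level in either group. Kit had 0 counts in all 6 libraries. Flt3 had 0, 1 and 0 counts in knockout and 0, 1 and 0 in control. Ryk was abundant in both groups, at 98.7, 122 and 120 CPM in knockout and 108, 82.5 and 84.2 CPM in control. Knockout library 1 and control library 1 crossed the other group, so the groups overlapped, and the log2 fold change was 0.31 (SE 0.15), and 0.40 without knockout library 1.

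**Figure D1:**
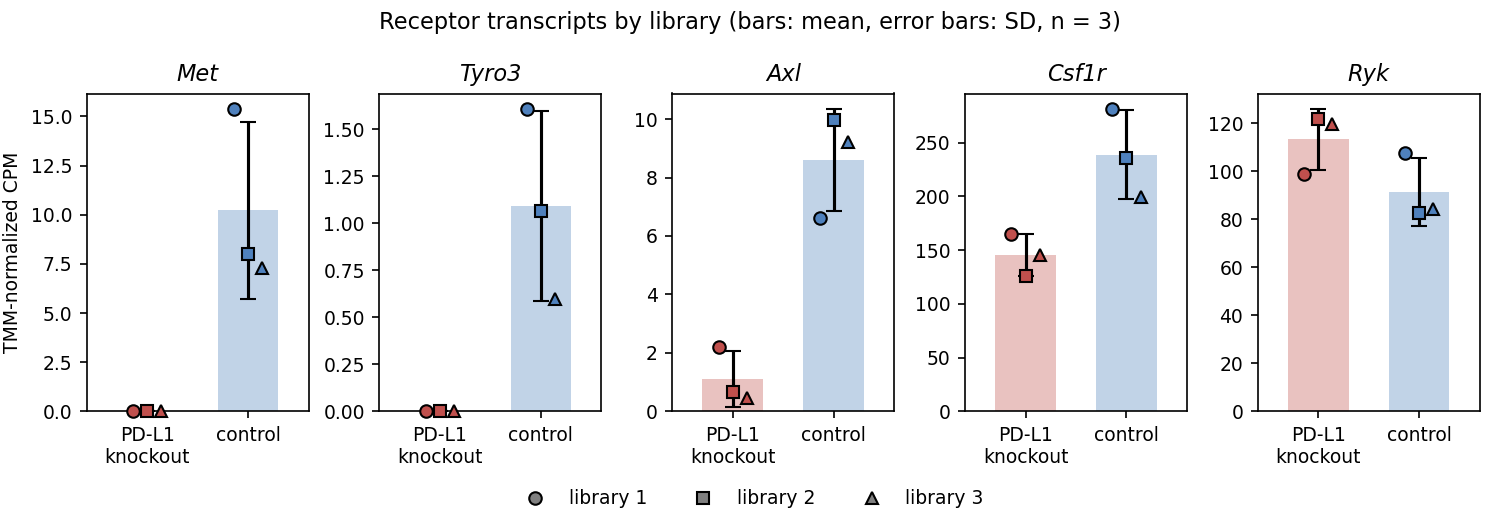
TMM-normalized CPM (linear vertical axes starting at 0, each with its own range) of the 5 genes that passed the count filter, in PD-L1 knockout libraries (left, red) and control libraries (right, blue). Points are libraries, bars are means and error bars are SD (n = 3). Met and Tyro3 sit at 0 in all 3 knockout libraries, Axl and Csf1r are lower there without overlap, and Ryk overlaps.

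Of the 10 genes, 5 passed the filter on low counts (Met, Csf1r, Axl, Tyro3 and Ryk). Met and Tyro3 did so through their control libraries alone, and Axl would not have passed on its knockout libraries. In the comparison that chose them, 4 of the 5 were past the threshold as lower and 0 as higher, and the same 4 had groups that did not overlap, which the choice itself favours. Over all 11453 genes tested, 25.3% were called, 13.5% as lower and 11.8% as higher, and groups did not overlap for 43%. Of the calls over all genes 46.7% were higher, against 23.2% when libraries were scaled by total counts alone. Since that comparison chose the genes, the count is no evidence about them. The remaining 5 genes had between 0 and 7 counts over the 6 libraries together.

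Ratios within a library do not depend on how the libraries are scaled. There were 1.67, 1.03 and 1.21 Csf1r counts per Ryk count in knockout, against 2.61, 2.86 and 2.37 in control. Axl counts were 1.33%, 0.535% and 0.308% of Csf1r counts in knockout and 2.35%, 4.22% and 4.63% in control. Neither ratio overlapped between the groups. The choice of these genes favours that, so the ratios are a description. In CPM, groups did not overlap for 43% of all genes tested. Met counts per 1000 Csf1r counts were 0, 0 and 0 in knockout and 54.6, 33.9 and 36.5 in control.

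**Figure D2:**
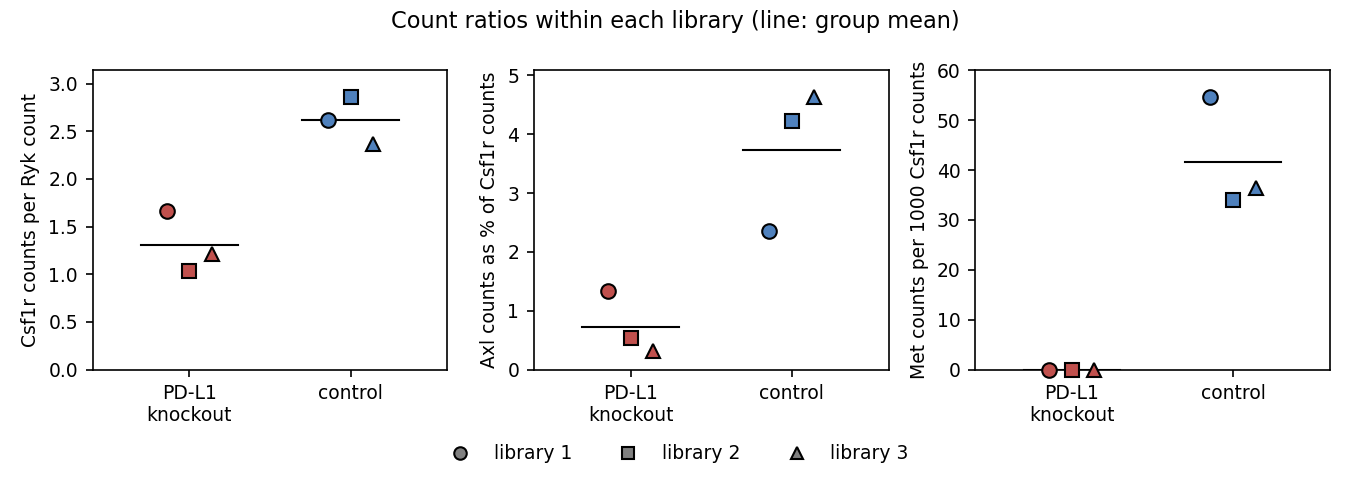
Ratios of counts within each library, in PD-L1 knockout (left, red) and control (right, blue), on linear axes starting at 0: Csf1r counts per Ryk count, Axl counts as a percentage of Csf1r counts, and Met counts per 1000 Csf1r counts. Points are libraries and lines are group means. The highest knockout values, 1.67, 1.33% and 0, lie below the lowest control values, 2.37, 2.35% and 33.9, which the choice of these genes favours.

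Among all receptor tyrosine kinases, compared per kb of exon, Csf1r and Ryk were the 2 most abundant in both groups. In knockout they were at 25.2 ± 3.39 and 25.0 ± 2.81 CPM per kb, which did not differ beyond their spread. In control they were at 41.4 ± 7.14 and 20.2 ± 3.11 CPM per kb (SD, n = 3 each), which did. Epha2, an ephrin receptor, came next (11.9 in knockout, 13.7 in control), followed by Lmtk2 (6.10 in knockout, 10.6 in control). Axl and Met were neighbours in control, at 1.71 ± 0.348 and 1.33 ± 0.585 CPM per kb, within each other's spread, and ranked 8 and 9 of 58. In knockout Axl ranked 10 and Met had no count. Of the 58 receptors, 10, 10 and 10 reached 1 CPM in the knockout libraries, and 15, 15 and 14 did in the control libraries. The 58 include the chosen receptors, so that choice favours this difference. Met and Axl reached 1 CPM in every control library, and Tyro3 in control libraries 1 and 2. Of these, only Axl did so in knockout, in library 1. Csf1r made up 37.5%, 30.1% and 31.5% of the summed CPM per kb of all receptors in knockout and 42.6%, 40.7% and 37.9% in control.

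**Figure D3:**
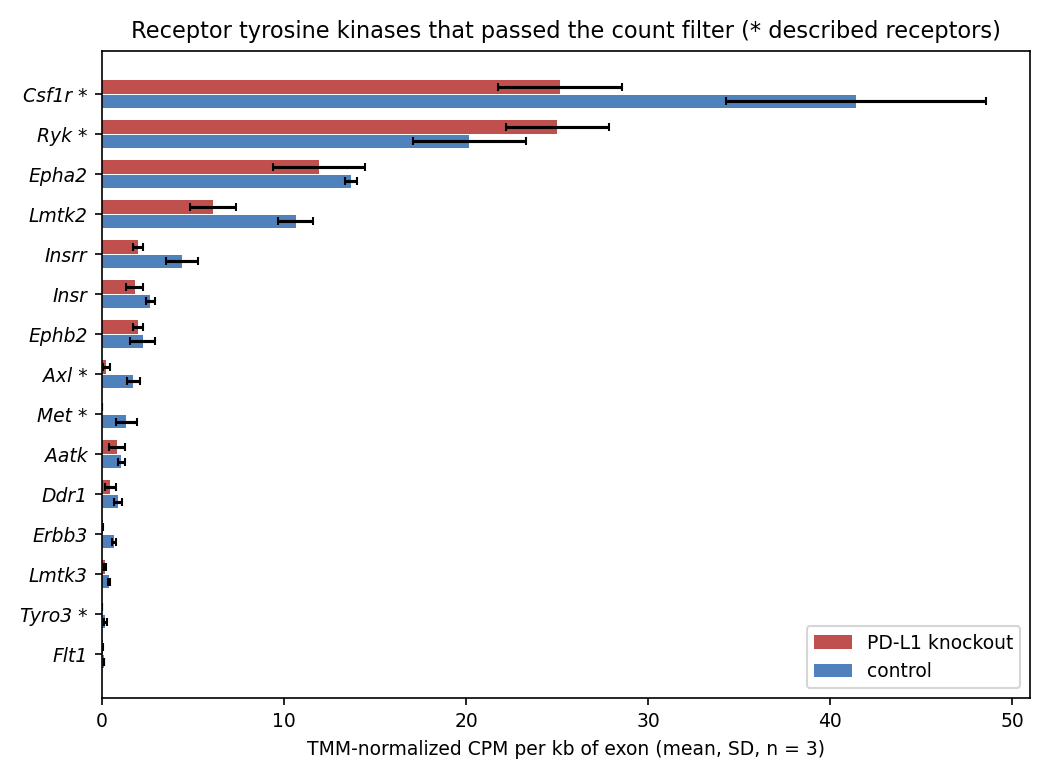
Mean TMM-normalized CPM per kb of exon (horizontal axis, linear from 0, error bars SD, n = 3) of the 15 receptor tyrosine kinases that passed the count filter, with the PD-L1 knockout bar (red) above the control bar (blue) for each. Stars mark Csf1r, Ryk, Axl, Met and Tyro3. Csf1r and Ryk are level in knockout, at 25.2 and 25.0, while in control Csf1r is at 41.4 and Ryk at 20.2.

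Of 50 other receptor tyrosine kinases, 10 passed the filter, and 6 of them fell in knockout while 0 rose. Erbb3 and Flt1, both among those that fell, passed the filter through their control libraries alone, which favours a call as lower. The median log2 fold change of the tested receptors on this list was -0.85, against 0.01 over all genes tested. Erbb3, a neuregulin receptor with little kinase activity of its own, had 0.151, 0.403 and 0.0995 CPM in knockout against 3.4, 4.56 and 3.88 CPM in control. It fell with a log2 fold change of -4.19 (SE 0.47, edgeR adjusted p = 0.000651), and -4.95 without knockout library 2. The insulin receptor relative Insrr fell to 11.3 ± 1.58 CPM in knockout, against 25.0 ± 5.08 in control (-1.14, SE 0.19, edgeR adjusted p = 0.00436). Lmtk2, a membrane-anchored kinase of endosomal traffic, fell (-0.80, SE 0.17, edgeR adjusted p = 0.0112), but leaving out control library 2 ended the call (-0.75, adjusted p = 0.0606, the highest of its 16 alternatives, the lowest being 0.000243). Flt1, a receptor of vascular endothelial growth factor, fell at under 2 CPM in control (-1.90, SE 0.42, edgeR adjusted p = 0.0132). It was not called without knockout library 2 (-1.94), knockout library 3 (-1.62) or control library 2 (-1.82), with adjusted p between 0.005 and 0.0733 over its alternatives.

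Of 22 genes for ligands and their processing, 14 were tested, 2 rose and 2 fell (median log2 fold change -0.36). Kitl, the ligand of Kit, was present although Kit was not, and fell to 26.0, 25.7 and 19.5 CPM in knockout, against 41.3, 49.9 and 56.5 CPM in control. Its log2 fold change was -1.06 (SE 0.17, edgeR adjusted p = 0.00404), and it was called in all 16 alternatives. The 2 ligands of Csf1r differed in level and in their calls. Csf1 had 169, 110 and 127 CPM in knockout and 147, 170 and 163 CPM in control (-0.24, SE 0.17, edgeR adjusted p = 0.303), with knockout library 1 at the control level, and was called as lower without it (-0.43, adjusted p = 0.0223, range over its alternatives 0.0223 to 0.681). Il34 rose, at 11.6, 12.8 and 15.2 CPM in knockout against 7.43, 10.2 and 8.47 CPM in control (0.60, SE 0.19, edgeR adjusted p = 0.048). That call was lost in 10 of 16 alternatives, with adjusted p of up to 0.276, among them the omission of knockout library 2 (0.62) or 3 (0.49) or of control library 1 (0.51), 2 (0.73) or 3 (0.58).

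The ligands of the other receptors were scarce. Gas6 had 1 count in the knockout libraries and 4 in control, and Pros1, which encodes protein S, had 11 and 37, so neither was tested. Wnt5a, a ligand of Ryk, had 0 counts in all libraries. Flt3l had 1.36, 1.07 and 1.54 CPM in knockout and 2.06, 1.84 and 2.96 CPM in control and did not pass the test (-0.79, SE 0.34, edgeR adjusted p = 0.109). Spint1 encodes an inhibitor of the proteases that activate hepatocyte growth factor. It fell to 0.0755, 0.134 and 0.348 CPM in knockout, against 3.49, 1.48 and 1.24 CPM in control (-3.26, SE 0.63, edgeR adjusted p = 0.00801). Without knockout library 3 it was at -4.13, and it passed the count filter through its control libraries alone. Plau, the urokinase protease, was abundant and rose to 2091, 1590 and 1423 CPM in knockout, against 1299, 1091 and 1100 CPM in control (0.55, SE 0.17, edgeR adjusted p = 0.0386). The call of Plau was lost in 6 of 16 alternatives, with adjusted p of up to 0.26. These included leaving out knockout library 2 (0.59), control library 2 (0.51) or control library 3 (0.51).

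Of 29 adaptors and receptor-proximal enzymes, 26 were tested, 1 rose and 5 fell (median -0.07). Fgr, a Src-family kinase of myeloid cells, passed the count filter through its control libraries alone. It had 0.453, 0.201 and 0.497 CPM in knockout against 1.79, 3.08 and 3.0 CPM in control (-2.75, SE 0.44, edgeR adjusted p = 0.00374). Vav1, an exchange factor for Rac GTPases, rose (0.71, SE 0.14, edgeR adjusted p = 0.00874), but leaving out control library 2 ended the call (0.70, adjusted p = 0.0548, range over its alternatives 7.54e-05 to 0.0548). The phospholipase Plcg1 fell (-0.42, SE 0.12, edgeR adjusted p = 0.0336) and lost its call in 8 of 16 alternatives, with adjusted p of up to 0.524. Among these were the replicate block (-0.42, adjusted p = 0.0546) and leaving out knockout library 2 (-0.39) or 3 (-0.42) or control library 2 (-0.38) or 3 (-0.44).

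In the RAS-ERK and PI3K-AKT cascades, 27 of 29 genes were tested, 2 rose and 6 fell (median -0.10). Ksr1, among those that fell, passed the count filter through its control libraries alone. Rictor, a subunit of the mTOR complex that phosphorylates AKT, fell to 27.7 ± 4.90 CPM in knockout, against 51.6 ± 5.72 in control (-0.90, SE 0.16, edgeR adjusted p = 0.00637). With offsets fitted per library for exon length and GC content, its log2 fold change was -0.41 (adjusted p = 0.03). The kinase Braf (-0.78, SE 0.15, edgeR adjusted p = 0.00788), the PI3K catalytic subunit Pik3cg (-0.63, SE 0.14, 0.0144) and the regulatory subunit Pik3r1 (-0.56, SE 0.13, 0.0146) fell too. None of these 3 was called without control library 2 (-0.70, -0.53 and -0.51). Pik3cg and Pik3r1 were not called without knockout library 2 (-0.61 and -0.55) or 3 (-0.57 and -0.54), nor Pik3r1 with the length and GC correction (-0.28). The adjusted p reached 0.0525 for Braf, 0.0875 for Pik3cg and 0.113 for Pik3r1 over their alternatives.

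Negative regulators of these receptors had 26 of 29 genes tested, of which 1 rose and 8 fell (median -0.20). Lrig1, among those that fell, passed the count filter through its control libraries alone. Sh3kbp1 encodes CIN85, an adaptor that joins Cbl in the endocytosis of Met and other receptors, and showed the deepest fall among the named genes of these lists. It had 0.981, 1.21 and 1.39 CPM in knockout against 47.5, 34.3 and 32.7 CPM in control (-4.96, SE 0.23, edgeR adjusted p = 3.77e-06). Cbl, the ubiquitin ligase that marks activated receptors for degradation, fell to 89.8, 67.3 and 71.2 CPM in knockout, against 169, 208 and 159 CPM in control (-1.23, SE 0.16, edgeR adjusted p = 0.00136). Ptprj, a receptor phosphatase that can dephosphorylate Met, fell as well (-0.87, SE 0.14, edgeR adjusted p = 0.00387). All 3 were called in every one of 16 alternatives, and Cbl was at -0.80 with the length and GC correction. Usp8, a deubiquitinase of endosomes, fell (-0.68, SE 0.17, edgeR adjusted p = 0.0186) but was not called without knockout library 2 (-0.59), knockout library 3 (-0.60) or control library 2 (-0.60), with adjusted p between 0.000622 and 0.0935 over its alternatives.

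Genes induced by ERK signalling did not share 1 direction: of 24, 21 were tested, 2 rose and 2 fell, and the median was 0.25. Egr1, an immediate early transcription factor, fell to 0.377, 3.43 and 3.23 CPM in knockout, against 12.4, 21.4 and 23.3 CPM in control (-2.99, SE 0.51, edgeR adjusted p = 0.00497). Egr1 would not have passed the count filter on its knockout libraries, which favours a call as lower. Ier3, another early response gene, had 57.5, 143 and 153 CPM in knockout against 29.0, 45.0 and 56.3 CPM in control and rose (1.43, SE 0.35, edgeR adjusted p = 0.0175). Knockout library 1 and control library 1 were each the lowest of their group for both Egr1 and Ier3. Ier3 was not called without knockout library 2 (1.27) or 3 (1.21) or control library 1 (1.22) or 2 (1.46), with adjusted p of up to 0.0694 over its alternatives. Vegfa rose (0.76, SE 0.24, edgeR adjusted p = 0.0417), with 127 CPM in knockout library 1 against 66.1 and 67.3 in the other knockout libraries and at most 53.7 in control. Its log2 fold change was 0.38 without knockout library 1, and it was not called without control library 1 (0.80), 2 (0.72) or 3 (0.77). Fosl2 fell (-0.44, SE 0.14, edgeR adjusted p = 0.048) and lost its call in 9 of 16 alternatives. They include the replicate block (-0.45, adjusted p = 0.0546) and leaving out knockout library 2 (-0.38) or 3 (-0.54) or control library 1 (-0.49), 2 (-0.37) or 3 (-0.46). Fosl2 was at -0.04 with that length and GC correction, where its adjusted p was 0.878, the highest of its alternatives, the lowest being 0.0209.

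Engulfment partners of the TAM receptors had 16 of 25 genes tested, of which 1 rose and 7 fell (median -0.37). The scavenger receptor Cd36 fell to 13.2, 14.9 and 10.8 CPM in knockout, against 89.9, 50.3 and 51.7 CPM in control (-2.30, SE 0.24, edgeR adjusted p = 0.0005). Dock1, the Rac activator of the engulfment machinery, fell (-1.34, SE 0.19, edgeR adjusted p = 0.00225), as did the integrin chain Itgav, which bridges to dying cells (-0.79, SE 0.12, edgeR adjusted p = 0.00294). Rxra, a nuclear receptor partner in the programme that dying cells switch on in phagocytes, rose to 24.1, 18.9 and 22.7 CPM in knockout, against 7.25, 9.84 and 8.55 CPM in control (1.35, SE 0.18, edgeR adjusted p = 0.00148). These 4 genes kept their calls in all 16 alternatives.

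Over the 7 lists together, 140 of 208 genes were tested, 9 rose (6.43%) and 36 fell (25.7%), where 11.8% and 13.5% of all tested genes did. Those that fell include Erbb3, Flt1, Spint1, Fgr, Ksr1 and Lrig1, which passed the count filter through their control libraries alone. They also include Egr1, which would not have passed on its knockout libraries. Such passage favours a call as lower. The 45 calls became 29 with the length and GC correction, 5 of them higher and 24 lower. They became 69 without knockout library 1, 20 without knockout library 2, 24 without knockout library 3, 16 without control library 2 and 28 without control library 3.

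**Figure D4:**
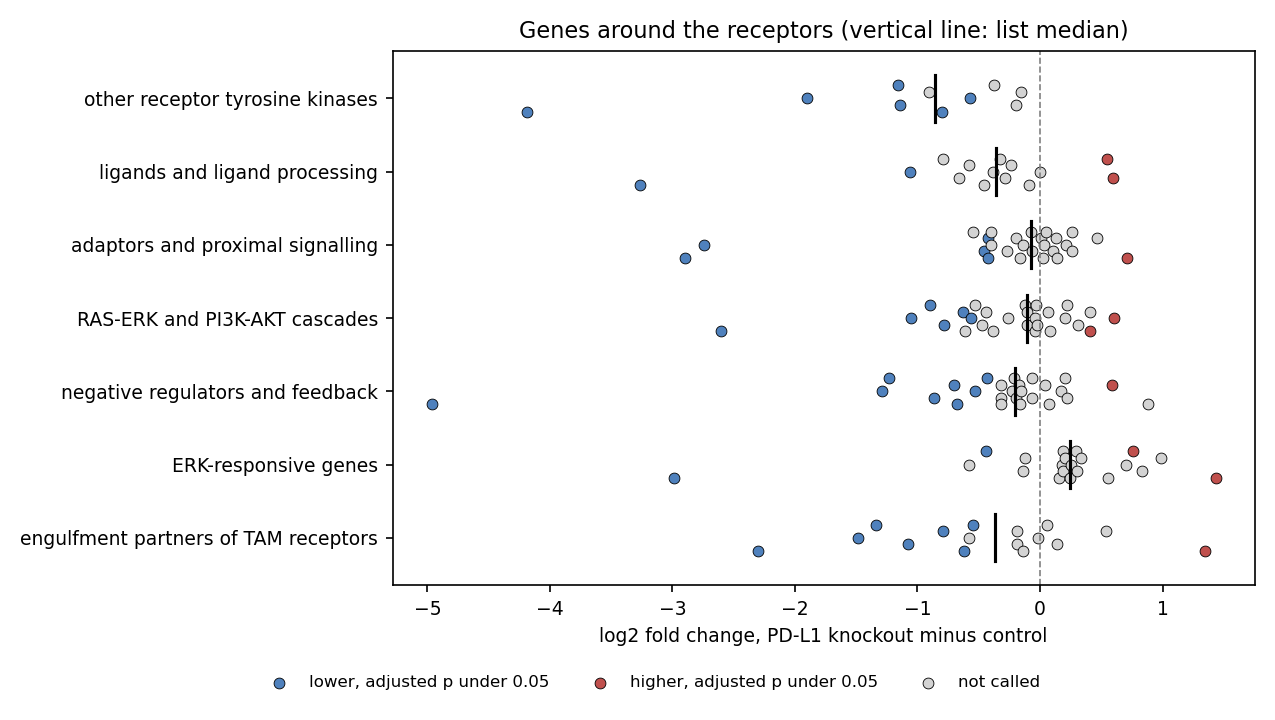
Log2 fold change, PD-L1 knockout minus control (horizontal axis), of each tested gene in the 7 lists around the receptors. Each point is a gene, blue where called lower, red where called higher and grey where not called, its height within a row has no meaning, and black lines are list medians. The point farthest left is Sh3kbp1 at -4.96, and the median is below 0 in 6 lists and 0.25 among ERK-responsive genes.

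The tested genes nearest to Met on chromosome 6 were all detected in knockout, and 1 of them rose and 1 fell. Among the 3 nearest tested genes on each side, Capza2, an actin capping subunit 62.3 kb away, had 173, 242 and 214 CPM in knockout and 181, 189 and 214 CPM in control (log2 fold change 0.11, SE 0.15, edgeR adjusted p = 0.614). St7, 119 kb away, rose (0.49, SE 0.13, edgeR adjusted p = 0.024), and was not called without knockout library 2 (0.51) or 3 (0.45) or control library 2 (0.45) or 3 (0.52), with adjusted p of up to 0.128 over its alternatives. Cav2, a caveolin 175 kb away on the other side, fell to 5.51, 2.82 and 3.23 CPM in knockout, against 18.4, 12.2 and 18.3 CPM in control (-2.09, SE 0.29, edgeR adjusted p = 0.00181). Tes, 358 kb away (0.46, SE 0.16, edgeR adjusted p = 0.0624), Mdfic (0.27, adjusted p = 0.385) and Gm20186 (-0.49, adjusted p = 0.448), both over 1000 kb away, did not pass. Tes was called as higher in 6 of 16 alternatives, among them the omission of knockout library 1 (0.60, adjusted p = 0.00435, range over its alternatives 0.00435 to 0.225) and the replicate block (0.45). Without that library Gm20186 was at -1.08. Of 529 tested genes of chromosome 6, 98 were higher and 55 lower, where 11.8% and 13.5% of all tested genes were. The median log2 fold change was 0.10 on chromosome 6, against 0.01 over all genes tested.

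The genes whose log2 CPM profile over the 6 libraries was closest to that of Met were, in order, Ncs1, Nectin3, Creb5, Mid1ip1 and Fmnl2, with a root mean squared difference of 0.22 to 0.53 after centring each profile. Ncs1, a neuronal calcium sensor, was the closest, at 0, 0 and 0.0497 CPM in knockout against 13.5, 7.64 and 7.99 CPM in control, so that control library 1 was highest for it as for Met. Creb5, a CREB-family transcription factor, had a far higher level, at 7.70, 8.86 and 9.80 CPM in knockout against 711, 844 and 830 CPM in control. The profiles closest to Csf1r were those of Asxl1, Cep250, Phrf1, Usp31 and 2510009E07Rik, at 0.02 to 0.06. Asxl1, a chromatin regulator, had 92.0, 69.1 and 80.2 CPM in knockout against 152, 132 and 108 CPM in control. Since these profiles were ranked over the libraries that define the groups, the likeness holds the group difference itself and is a description.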

How the data were processed

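RNA-seq libraries of PD-L1 knockout and control DC2.4 cells (3 each) were analysed from the table deposited by the authors, which holds unscaled whole-number counts of reads for each gene. The submitters' processing notes name Trimmomatic 0.39, STAR 2.7.5c and StringTie 2.1.7 with the build mm10, without roles. For the counting step, the annotation and the strand the sources used here give nothing, so reads of overlapping or antisense genes cannot be separated. Columns were matched to samples by name. Within a group, every pair of libraries differed beyond counting error (chi-square per degree of freedom at least 16.3).

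Genes were filtered with filterByExpr in edgeR 4.0.16 (R 4.3.3), leaving 11453 of 31205, scaled by TMM and tested with edgeR's quasi-likelihood F test, two-sided, with Benjamini-Hochberg adjustment over all tested genes and a threshold of 0.05. SE is the log2 fold change over the root of its F statistic. Log2 fold changes are knockout minus control. For profiles, 2 counts were added before log2. Exon lengths, GC content and positions came from GENCODE M21 (mm10), which gave both for 98.6% of tested genes, and promoters from RefSeq, which held 9 of the 10 genes.

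The 10 genes and the 7 gene lists were chosen with earlier results of these data known. The naming rule took the 10 genes, Cd274, the receptors' ligands, up to 4 called genes per list without overlap by lowest adjusted p, 5 nearest profiles each for Met and for the most abundant of the 10, and the 3 tested neighbours of Met on each side. A gene that this rule names is not reported here. Names outside it, such as Gab2, Epha2 and marker genes, were chosen after their values were seen. Alternatives were other scalings (DESeq2 1.42.0 size factors, upper quartile, total counts), no filter, 1 CPM in 3 libraries, DESeq2's Wald test, limma-voom (limma 3.58.1), the replicate number as a block, offsets for length and GC content with and without it, and leaving out each library. The steps were tested on simulated data.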

Additional observations from a re-analysis of the deposited data

How the results depend on the processing

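The comparison that chose the 10 genes also favours their calls, so no adjusted p is given for them. Csf1r was not past the threshold without knockout library 2, knockout library 3 or control library 2, and Ryk was past it without knockout library 1. Over the 16 alternatives the log2 fold change lay between -0.86 and -0.54 for Csf1r. It lay between -3.97 and -2.60 for Axl and between 0.16 and 0.45 for Ryk. Scaling by total counts shifted the median over all tested genes by -0.15 on the log2 scale, left 23.2% of calls higher in place of 46.7%, and gave 667 genes higher in place of 1353; among the listed genes it left 4 higher in place of 9. No filter gave 14 listed genes higher. The length and GC correction gave 29 calls among the listed genes, 5 of them higher, and with the replicate block 28, of which 5 were higher and 23 lower.

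Leaving out 1 library gave 638 (control library 2) to 4962 (knockout library 1) calls over all genes in place of 2896, 166 to 2346 higher and 472 to 2616 lower. Among the listed genes it gave 16 to 69 calls, 1 to 17 higher and 15 to 52 lower. Mdfic ranged from -0.0695 to 0.45 and Capza2 from -0.0062 to 0.23 over these omissions, and Capza2 was at -0.050 with total counts. The cause was not tested. Among the values of named genes under the alternatives, which include 5 of the 10 chosen genes, 590 stayed on their side of the threshold with their direction, 70 lost a call, 8 gained one and 3 changed direction.

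Same-numbered libraries did not deviate together throughout (correlations of deviations 0.15, -0.06 and 0.36 for numbers 1, 2 and 3). Knockout libraries 1 and 3 correlated best with the control library of the same number, and knockout library 2 with control library 3 (0.11). With 3 libraries per group, these correlations cannot decide whether the number is a pairing. The replicate block gave 3212 calls over all genes and 50 among the listed genes. Depth limits Mertk, Flt3, Kit, Gab1 and Hgf, which had at most 6 counts in a group.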
